A study of Homo sapiens with 21 samples.

Results

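RNA-seq libraries of HMLE cells on day 15 (d15) of TGFβ treatment were compared with libraries made on day 4 (d4), 11 days earlier. The comparison took the 3 libraries of each day and the genes with a mean of at least 10 normalized reads over these 6 libraries, which were 13391 of the 23201 gene symbols in the file. HMLE is an established line of human mammary epithelial cells, immortalized with telomerase and a viral large T antigen. The study treated it with TGFβ to follow gene expression through the epithelial to mesenchymal transition (EMT), with 3 libraries each of untreated cells (d0) and of days 1, 4, 7, 10, 15 and 20 (d1 to d20). Both groups compared here carried the treatment, and each well had received the same number of cells at the start. No untreated cells cultured for 4 or 15 days were among the libraries, so the length of treatment and the time in culture cannot be told apart. The study describes biological triplicates, whose numbers are not given in the table, and the p-values measure the spread between the 3 libraries of a day.

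TGFβ binds a pair of receptor kinases that phosphorylate SMAD proteins, which enter the nucleus and change transcription. In epithelial cells the pathway raises EMT transcription factors of the SNAIL, ZEB and TWIST families and genes of the extracellular matrix, and it halts the cell cycle, in part through inhibitors of cyclin-dependent kinases. Basal mammary epithelial cells, the kind that HMLE resembles, carry basal keratins and hemidesmosome proteins and share part of their programme with keratinocytes and with contractile myoepithelium.

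Values are normalized reads, the reads of a gene divided by 1 size factor per library. The 6 libraries held between 19845160 and 22667754 reads. The typical log2 difference of a gene (root mean square) was 0.21 to 0.23 between libraries of the same day and 0.59 to 0.60 between a d4 and a d15 library. Close replicates were among the reasons for taking both days, so the small spread within a day, on which the p-values rest, is not a result. Of the basal markers, all 15 passed the filter, with summed values of 958240 to 977704 at d4 and 912771 to 940649 at d15. Among 15 luminal markers, 8 passed the filter and 6 (*PGR*, *ELF5*, *KIT*, *PROM1*, *TFF1* and *TFF3*) were at no more than 3 reads in every library of both days, the floor used here. The luminal markers summed to 65278 to 68128 at d4 and 54798 to 57631 at d15. Most of this was the keratin gene *KRT7*, with means of 53608 at d4 and 39382 at d15. The 12 immune cell markers summed to 1854 to 1931 at d4 and 1519 to 1583 at d15, nearly all of it *CSF1R* and *CD68*, with *PTPRC*, *CD3D*, *CD3E* and *MS4A1* at the floor.

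Between d4 and d15, 488 genes (3.64% of the genes tested) were higher and 472 (3.52%) were lower by at least 2-fold at an adjusted p under 0.05 (limma on log2(value + 1), Benjamini-Hochberg adjustment over all 13391 genes), 960 genes or 7.17% in all. Without a minimum fold, 3963 genes (29.6%) were higher and 4814 (35.9%) were lower, so that 65.5% of the genes passed. Which direction held more genes depended on the scaling, with 4504 higher and 4304 lower after scaling to equal library totals and 4474 and 4236 after quantile normalization. The median difference of all genes was -0.02 on the log2 scale (0.02 with equal totals and 0.01 with quantile normalization), and the 10th and 90th percentiles were -0.57 and 0.55. Changes of at least 4-fold were found in 88 genes that rose and 66 that fell. The d4 and d15 values overlapped in 4 of the genes called higher and 2 of those called lower, and over all genes tested 68.2% had no overlap. Most differences that passed were below 2-fold, and the counts for gene lists use the adjusted p alone unless a 2-fold change is stated, so that 29.6% higher and 35.9% lower is the background for each of them. The libraries are of bulk RNA, so a change within cells and a change in the share of cells that express a gene cannot be told apart. Of the d7 libraries, which are given as context, 1 stood apart from the other two, and none of them entered the test.

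**Figure D1:**
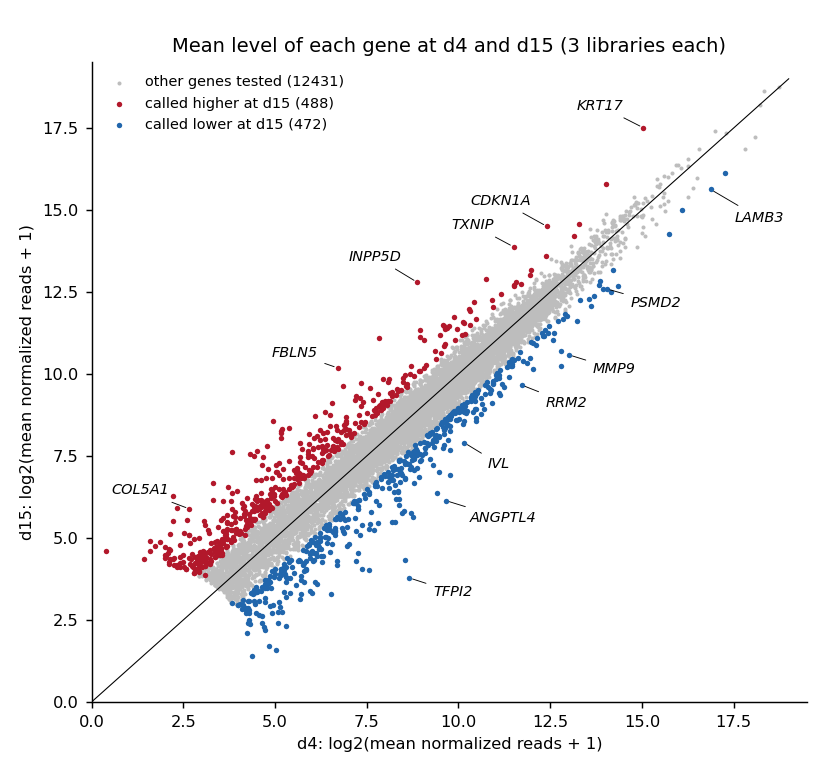
Mean normalized reads of each of the 13391 genes at d4 (x axis) and d15 (y axis), both as log2(mean + 1), with the called genes in red (488 higher at d15) and blue (472 lower at d15). The grey genes lie along the diagonal, *KRT17* and *INPP5D* stand above it, and *TFPI2* and *ANGPTL4* stand below it.

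Of the 12 genes with the largest increases and a mean of at least 50 in the higher group, *INPP5D*, an inositol phosphatase best known from blood cells, had the highest level at d15. Its values were 471, 459.6 and 473 normalized reads at d4 and 7135, 7096 and 7145 at d15, a 15.2-fold rise with no overlap (log2 difference 3.93, SE 0.04, limma, adjusted p = 1.64e-52). The defining blood cell marker *PTPRC* was at the floor in these libraries. *RTN1*, a reticulon of the endoplasmic reticulum, rose from 4.21, 2.92 and 3.92 to 79.6, 67.8 and 80.8 (log2 difference 4.05, SE 0.27, limma, adjusted p = 7.03e-18), starting close to the floor. Matrix genes made up several of the other steep rises. *FBLN5*, which encodes an elastic fibre protein, rose from 103, 96.4 and 111 to 1216, 1158 and 1121. *ABI3BP*, another matrix protein gene, rose from 211, 234 and 239 to 2140.2, 2177 and 2292. *FBN2*, a fibrillin gene, rose from 35.2 to 322, and *COL5A1*, a chain of fibrillar collagen, from 5.34 to 58.3. The remaining genes among the 12 were *NCRNA00086*, *EPPK1* (a plakin that binds keratin filaments), *USH1G*, *EDN2* (an endothelin), *GPR124* (an adhesion receptor) and *CYFIP2* (a regulator of actin assembly), with log2 differences between 3.17 and 3.86. That the d4 and d15 values do not overlap was a condition for choosing these 12 genes, so it is not a result about them.

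The deepest fall was that of *TFPI2*, an inhibitor of serine proteases that is secreted into the matrix. It was at 407, 412 and 389.7 normalized reads at d4 and at 15.3, 12.7 and 10.4 at d15, 29.6-fold lower (log2 difference -4.89, SE 0.15, limma, adjusted p = 2.63e-31). *ANGPTL4*, a secreted inhibitor of lipoprotein lipase, fell from 737, 822 and 863 to 62.2, 70.5 and 75.6 (log2 difference -3.52, SE 0.09, limma, adjusted p = 7.57e-35). *EHF*, an ETS transcription factor of epithelia, was at 848, 882 and 878 at d4 and 116, 137 and 106 at d15. Genes of the outer epidermis stood among the largest decreases as well. *KLK7*, a protease of skin shedding, fell from 200.9, 202 and 164 to 13.3, 11.8 and 20.7. *CASP14*, the epidermal caspase, fell from 715, 681 and 656 to 80.6, 85.02 and 81.8. *A2ML1*, a keratinocyte protease inhibitor, fell from 419, 454 and 427 to 46.9, 41.6 and 58.01. The other 6 were *SERPINB2*, *MYH15*, *MYH16*, *UCA1*, *MYEOV* and *SULT1B1*, with log2 differences from -4.24 to -2.81, and reads of the myosin genes *MYH15* and *MYH16* may be shared with paralogs.

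The most abundant gene among those called higher was *KRT17*, a keratin of basal and stressed epithelium. Its values were 33397, 34185 and 32934 at d4 and 186759, 181902 and 191369 at d15, a 5.57-fold rise (log2 difference 2.48, SE 0.03, limma, adjusted p = 6.1e-48), although reads of close keratin paralogs can be shared. *GLUL*, glutamine synthetase, rose from 17492, 15976 and 16073 to 56510.3, 55476 and 56573. *CDKN1A*, the cyclin-dependent kinase inhibitor p21, rose from 5413, 5725 and 5163 to 23139.9, 22797 and 23650.4. *HSPB1*, a small heat shock protein gene, and *DST*, which encodes a linker of hemidesmosomes to keratin, completed the 5 highest genes called higher, at 1.30 and 1.08 on the log2 scale. On the other side stood *LAMA3* and *LAMB3*, chains of the epithelial laminin that anchors basal cells. *LAMA3* fell from 156187, 154139 and 160089 to 72258, 73339.8 and 70297. *LAMB3* fell from 118152, 124741 and 116829 to 52269, 49105 and 50525. *S100A2*, a calcium-binding protein gene of basal epithelium, *MT2A*, a metallothionein, and *FASN*, fatty acid synthase, were the other 3, with log2 differences of -1.10, -1.48 and -1.03.

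Genes of DNA replication and mitosis were lower at d15 almost without exception. Of 26 S phase genes, 24 were lower and 1 (*TYMS*, 0.27 on the log2 scale) was higher, with 15 at least 2-fold lower and a median of -1.05, against -0.02 over all genes. All 30 mitosis genes were lower, 11 of them at least 2-fold, with a median of -0.88. *E2F1*, a transcription factor that drives entry into S phase, was at 293, 346 and 364 at d4 and 49.98, 69.6 and 70.4 at d15 (log2 difference -2.39, SE 0.12, limma, adjusted p = 3.4e-23). *RRM2*, the ribonucleotide reductase subunit made in S phase, fell from 3332, 3400.3 and 3415 to 779, 800.5 and 849. *CLSPN*, a mediator of the replication checkpoint, and *DTL*, an adaptor for degradation of replication factors, changed by -1.95 and -1.74 on the log2 scale. Of the mitosis genes, *DLGAP5*, a spindle protein gene, fell from 2425, 2194 and 2351 to 825, 833 and 849. *ANLN*, which encodes the contractile ring scaffold anillin, fell from 6446, 5989 and 6279 to 2446, 2295 and 2488. *CCNA2* (cyclin A) and *BUB1B* (spindle checkpoint) were at -1.21 and -1.19. *MKI67*, the proliferation marker Ki-67, which was named after its values were seen, fell from 7273, 7175 and 7589 to 3385, 3226 and 3261.

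The promoters of cell cycle genes are known for 2 short elements, E2F sites in genes of S phase and the cell cycle homology region (CHR) in genes of mitosis. The 250 bases before the start of 4 of the genes described above are shown because these genes had among the largest decreases of their lists and hold such letters. The sequences are RefSeq sequences of GRCh38.p14, written 5′ to 3′ on the gene's strand, ending at the base before the start, with matches in capitals.
*E2F1* (chr20:33686386-33686635, minus strand): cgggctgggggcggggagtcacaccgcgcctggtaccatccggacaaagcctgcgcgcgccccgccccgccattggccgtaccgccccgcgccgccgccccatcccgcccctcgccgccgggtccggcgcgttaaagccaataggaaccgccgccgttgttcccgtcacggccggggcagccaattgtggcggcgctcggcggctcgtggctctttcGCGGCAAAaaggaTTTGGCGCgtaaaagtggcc
*DTL* (chr1:212035498-212035747, plus strand): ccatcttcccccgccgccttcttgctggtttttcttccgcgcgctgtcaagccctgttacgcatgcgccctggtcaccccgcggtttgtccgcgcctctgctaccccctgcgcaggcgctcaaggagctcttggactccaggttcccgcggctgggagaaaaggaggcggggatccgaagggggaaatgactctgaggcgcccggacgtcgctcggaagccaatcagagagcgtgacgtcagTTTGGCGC
*DLGAP5* (chr14:55191586-55191835, minus strand): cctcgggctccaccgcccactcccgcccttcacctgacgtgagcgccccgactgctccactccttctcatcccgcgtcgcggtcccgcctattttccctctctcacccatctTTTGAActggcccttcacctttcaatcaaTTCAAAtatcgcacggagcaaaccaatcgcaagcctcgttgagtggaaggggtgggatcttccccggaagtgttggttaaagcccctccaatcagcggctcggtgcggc
*ANLN* (chr7:36389612-36389861, plus strand): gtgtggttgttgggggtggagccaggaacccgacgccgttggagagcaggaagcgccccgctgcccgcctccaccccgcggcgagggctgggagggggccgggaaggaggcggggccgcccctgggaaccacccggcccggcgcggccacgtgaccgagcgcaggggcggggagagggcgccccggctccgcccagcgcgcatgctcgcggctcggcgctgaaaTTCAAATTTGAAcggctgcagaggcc
In *E2F1* and *DTL* the capitals mark any of the E2F letters TTTGGCGC, TTTCGCGC, TTTCCCGC and TTTGCCGC on either strand. In *DLGAP5* and *ANLN* they mark the CHR letters TTTGAA on either strand. *E2F1* held 2 matches, at 33 and 20 bases before the start (GCGGCAAA and TTTGGCGC), and *DTL* held 1, at 8 bases before it. *DLGAP5* and *ANLN* held 2 CHR matches each. *RRM2* and *CLSPN*, which fell more than *DTL*, held no E2F match. *CCNA2* held no CHR match, whereas *BUB1B* and *MKI67* did.

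Of 23 S phase genes with a promoter in the table, 13 (56.5%) held an E2F match and 2 (8.7%) a CHR match, against 5.56% and 12.1% of the 9288 genes tested that had one. Of 25 mitosis genes, 3 (12%) held an E2F match and 15 (60%) a CHR match. A CCAAT box was found in 73.9% of the S phase and 80% of the mitosis promoters and in 41.7% of those of the genes tested. No motif's letters hold those of another. Over all 27305 promoters in the table the shares were 3.4% for E2F, 16.1% for CHR and 37% for CCAAT. Across the genes tested, 29 of 516 (5.62%) with an E2F match were at least 2-fold lower at d15, against 286 of 8772 (3.26%) without one, and 10 (1.94%) were at least 2-fold higher, against 277 (3.16%). The medians of both groups were -0.04 and -0.03 on the log2 scale. Of 1122 genes with a CHR match, 52 (4.63%) were at least 2-fold lower, against 263 of 8166 (3.22%) without, and 47 (4.19%) were at least 2-fold higher, against 240 (2.94%), so the share was higher in both directions. For CCAAT, 145 of 3874 genes (3.74%) with a match were at least 2-fold lower, against 170 of 5414 (3.14%) without. At least 2-fold higher were 91 (2.35%) with a CCAAT match and 196 (3.62%) without. The S phase and mitosis genes are themselves among the genes tested, *E2F1* and *DTL* for instance. These shares are therefore not a result separate from that of the lists. A match shows only that the letters are in this window.

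Averaged over the list, the S phase genes stood at 9.70 ± 0.0022 (SD, n = 3) on the log2 scale at d4 and 8.66 ± 0.02 at d15, and the mitosis genes at 11.2 ± 0.04 and 10.3 ± 0.02. The differences of -1.04 and -0.89 each had a two-sided exact permutation p of 0.1, the smallest that 3 libraries against 3 allow. Since d4 and d15 were taken for comparison as days of low proliferation with close replicates, this p-value lends the differences no support. For the same reason the list levels place both days in the time course as a description only. The S phase mean was between 10.5 and 10.7 at d0, d1 and d20, 10.9 at d10 and 9.95 at d7, with d15 lowest and d4 next. The mitosis mean was lowest at d15 and second lowest at d4 too, although the lowest d7 library, at 11.24, was close above the highest d4 library, at 11.22. At d0 and d20 it was 11.8.

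**Figure D2:**
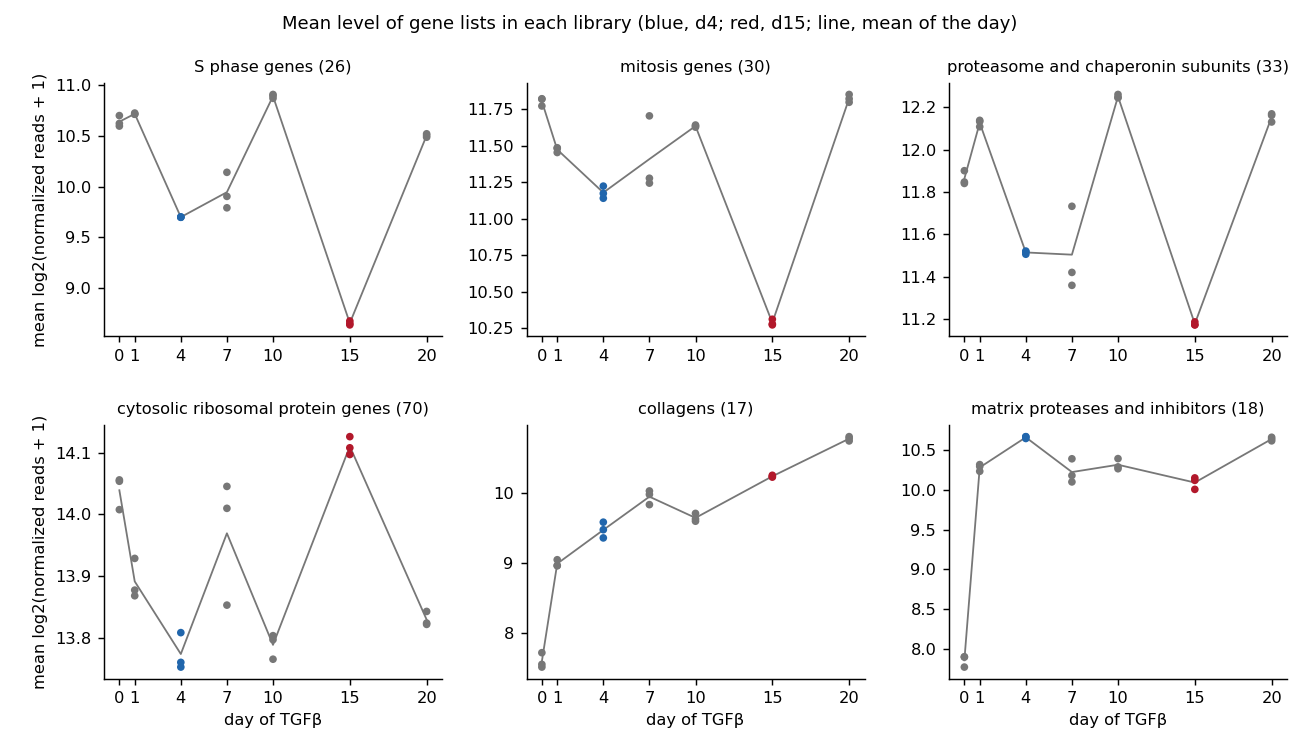
Mean log2(normalized reads + 1) over the members of 6 gene lists in each of the 21 libraries, by day of TGFβ treatment, with the number of genes in brackets. Points are libraries (blue, d4; red, d15; grey, other days) and lines join the day means; the S phase, mitosis and proteasome lists are lowest at d15, the ribosomal protein list stands highest at d15 among the day means, and the d7 libraries spread more than those of other days except for the collagens.

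Genes that control entry into the cell cycle went in both directions. Of 14 genes for cyclin-dependent kinase inhibitors, D cyclins, the RB family and *MYC*, 5 were higher and 3 lower, with a median of 0.04. Of all genes, 29.6% were higher and 35.9% lower. *CDKN1C*, which encodes p57, rose from 86.2, 93.5 and 87.2 to 349, 342 and 321, beside the rise of *CDKN1A*. *CCND1*, cyclin D1, fell from 4289 to 2413. *CDKN2B*, an inhibitor known as a TGFβ target, rose from 1366 to 2083. *CDKN1B*, *CCND2*, *CCND3*, *RBL1*, *RBL2* and *MYC* did not pass the test, with log2 differences between -0.14 and 0.06.

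Other genes known for restraining growth or glucose uptake rose as well, and these 2 were named after their values were seen. *BTG2*, an antiproliferative gene, rose from 728, 722 and 715 to 2388, 2329.9 and 2286 (log2 difference 1.69, SE 0.04, limma, adjusted p = 1.64e-35). *TXNIP*, an arrestin that restrains glucose uptake, rose from 3054, 2837 and 2803 to 15025, 15294 and 14824 (log2 difference 2.38, SE 0.03, limma, adjusted p = 2.69e-46). All d15 libraries lay above all d4 libraries for both genes, and the groups did not overlap in 68.2% of all genes tested. At d7, 2 libraries had *CDKN1A* at 22956 and 20637 and the third at 4840, and at d10 the mean was 2742, so the level between both days did not follow a steady course.

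Ribosomal protein genes all moved one way, by small amounts. Of 72 cytosolic ribosomal protein genes, 70 passed the filter and all 70 were higher at d15, none by 2-fold, with a median of 0.32 on the log2 scale and a range from 0.14 (*RPL35*) to 0.63 (*RPS19*). *RPS19* was at 16554, 16347 and 15371 at d4 and 25191, 25099 and 24622 at d15. The other 2 were at the floor in every library, and reads of this family can be shared with its many pseudogenes. The count was 70 with each scaling tried. Genes of protein turnover and folding in the cytosol went the other way. Of 33 proteasome and chaperonin subunit genes, 28 were lower and 1 was higher, with a median of -0.28. *PSMD2*, a subunit of the proteasome's regulatory particle, fell from 16343, 17539 and 16506 to 6439, 5985 and 6157 (log2 difference -1.44, SE 0.03, limma, adjusted p = 1.22e-37), while the next largest, *PSMB3*, changed by -0.86.

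Metabolic genes were mostly lower. In glycolysis, 19 of 20 genes were lower with a median of -0.27, and *LDHA*, lactate dehydrogenase, fell from 13309, 13001 and 13194 to 8405, 8753 and 8604; *GAPDH* did not pass (0.06). Of 23 genes of cholesterol synthesis and uptake, 17 were lower and 4 higher, with a median of -0.57. *HMGCS1*, the enzyme before the rate-limiting step, fell from 4433, 4434 and 4493 to 1889, 1821 and 1911. *FDPS*, farnesyl diphosphate synthase, fell from 5069, 5024 and 4994 to 2311, 2246 and 2261. Fatty acid synthesis had 9 of 13 genes lower, with *ACLY*, which makes cytosolic acetyl-CoA, at -1.12, *FASN* at -1.03 and *SCD*, the stearoyl-CoA desaturase, at -0.74. Of 37 subunits of oxidative phosphorylation, 22 were lower and 6 higher, with a median of -0.10, and 14 were lower after quantile normalization. Genes of the ATF4 response to amino acid shortage were higher in 17 of 21 cases and lower in none, with *NUPR1*, a stress-induced chromatin protein gene, rising from 2919, 2951 and 2872 to 6699, 6714 and 6798. *TRIB3*, a pseudokinase gene, rose from 2873, 2962 and 3158 to 5321, 5723 and 5185. The lists of hypoxia, NRF2, lysosome and ER folding genes held members in both directions, with medians of -0.004, 0.01, 0.06 and -0.01. Of the metallothioneins, *MT2A* fell from 53539, 60379 and 49847 to 21261, 17011 and 20327 while *MT1E* rose from 7355 to 10186, and reads of these paralogs can be shared.

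**Figure D3:**
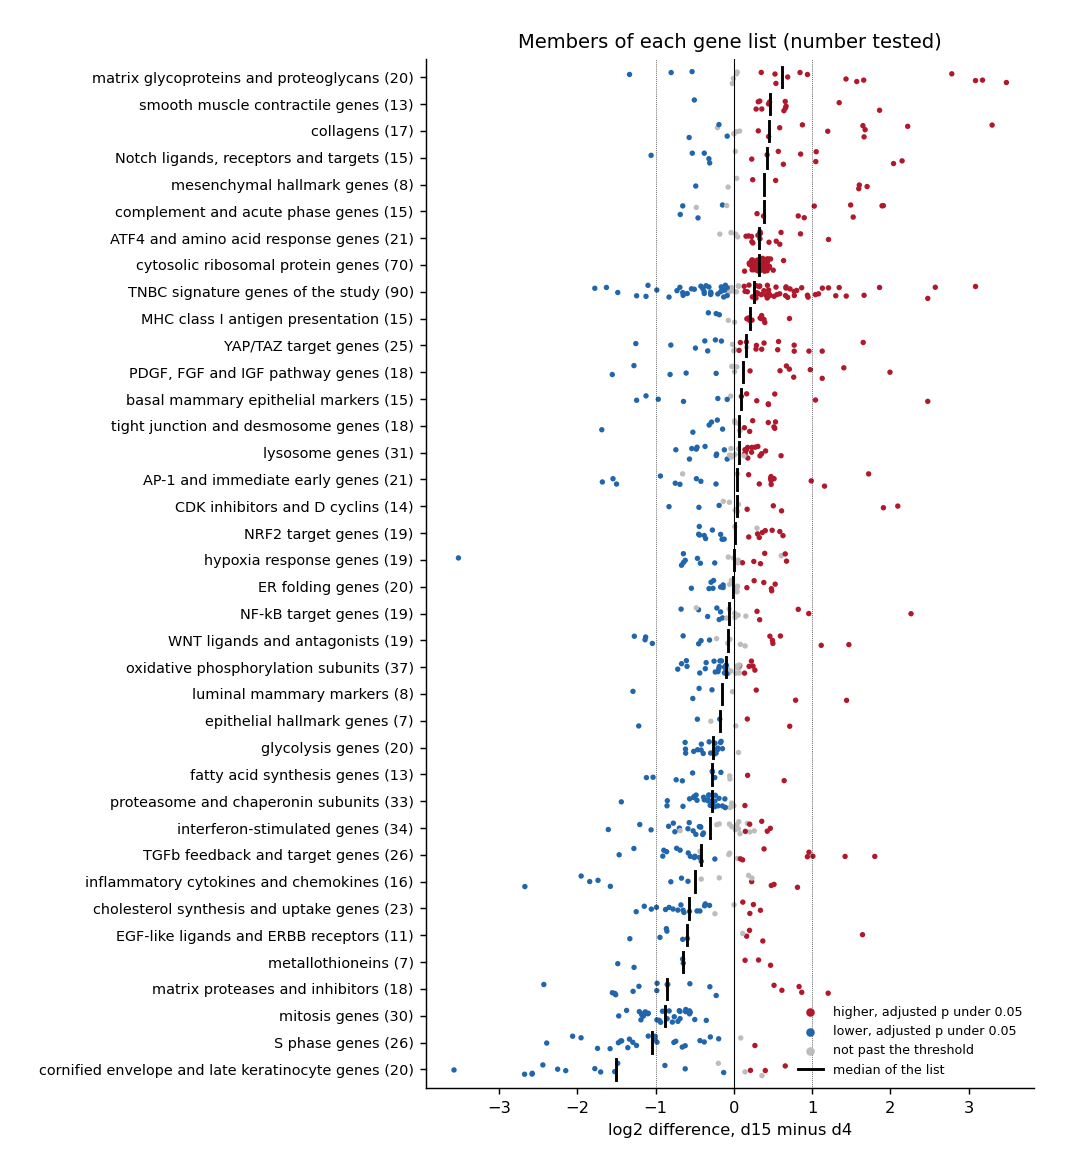
Log2 difference between d15 and d4 (x axis) of each tested member of the gene lists shown, 1 row per list, each with its number of tested genes, ordered by the median (black bar). Red and blue points passed an adjusted p under 0.05; the list of matrix glycoproteins and proteoglycans has a median of 0.61 and the list of cornified envelope genes one of -1.50.

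Most listed genes for structural matrix proteins were higher at d15. Most of a list of matrix proteases, their inhibitors and lysyl oxidases were lower. Of 17 collagen genes tested from the list, 10 were higher and 3 lower, 6 of the former at least 2-fold. The list does not hold all collagen genes. *COL13A1* and *COL22A1*, which are not on it, were lower (-1.72 and -1.17), while *COL9A2* was higher (2.48). These were named after their values were seen. *COL6A1* was at 155, 156 and 178 at d4 and 514, 532 and 506 at d15. *COL6A2* rose from 30.5, 27.3 and 36.2 to 142, 155 and 150.2. *COL1A2*, a chain of type I collagen, rose from 66.3, 64.3 and 64.6 to 216, 206 and 208. The groups did not overlap for any of these, which was also so for 68.2% of all genes tested. Of 20 glycoproteins and proteoglycans, 13 were higher and 3 lower, with a median of 0.61. *BGN*, the small proteoglycan biglycan, rose from 32.6, 36.03 and 36.2 to 315, 308 and 291 (log2 difference 3.09, SE 0.12, limma, adjusted p = 8.33e-27). *POSTN*, periostin, a matrix protein of fibroblasts, rose from 114, 113 and 119 to 784, 828 and 789. *FN1* was already at 425548, 431155 and 441115 at d4 and stood at 456887, 444143 and 429087 at d15, where the groups overlapped (log2 difference 0.04, SE 0.04, limma, adjusted p = 0.384). *LUM*, *DCN*, *LAMA4* and *ELN* were at the floor, and *COL11A1* too.

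Of 18 genes for matrix proteases, their inhibitors, the urokinase receptor and lysyl oxidases, 13 were lower and 5 higher, with a median of -0.85. *MMP9*, a gelatinase, fell from 8487, 7824 and 8478 to 1514, 1473 and 1611, 5.39-fold (log2 difference -2.43, SE 0.04, limma, adjusted p = 2.17e-44). *PLAU*, urokinase, fell from 12144, 13069.5 and 12403 to 4334, 4100.0 and 4374. *SERPINE2*, an inhibitor of it and of thrombin, fell from 3786, 3739 and 3696 to 1377, 1198 and 1336. *PLAT*, the tissue plasminogen activator, was at 61.4 and 21.6 on average. The 5 that were higher were *MMP2*, *TIMP2*, *TIMP3*, *LOXL1* and *LOX*, the lysyl oxidase that cross-links collagen, which rose from 5349 to 12325. *MMP1* and *MMP10* were below the filter, with means of 12.1 and 8.39 at d4 and 0.98 and 0.60 at d15.

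The hallmark genes of EMT did not move as a block. Of 8 mesenchymal genes, 5 were higher, 1 was lower and 2 did not pass. *ZEB1*, a repressor of epithelial genes, was at 68.4, 65.2 and 60.7 at d4 and 227, 223 and 189.6 at d15 (log2 difference 1.70, SE 0.12, limma, adjusted p = 1.19e-17). *ZEB2*, a related repressor, rose from 36.8, 41.9 and 30.4 to 110.2, 122 and 102. *CDH2*, N-cadherin, rose from 80.98, 69.1 and 63.6 to 216, 215 and 221. *VIM*, vimentin, rose from 43565, 43040.3 and 43152 to 63569, 61705 and 62524. *TWIST1* rose from 264 to 312, whereas *SNAI2* fell from 8398, 8209.6 and 8154 to 5843, 5898 and 5917. *TWIST2* had means of 145 at d4 and 138 at d15 with overlapping groups (log2 difference -0.07, SE 0.11, limma, adjusted p = 0.559). Of 7 epithelial genes, 3 were lower and 2 higher. *OVOL1*, a transcription factor that opposes ZEB1, fell from 190.3, 178 and 153 to 68.3, 75.98 and 77.7 (log2 difference -1.22, SE 0.12, limma, adjusted p = 1.84e-12). *OCLN*, occludin of tight junctions, and *ESRP1*, an epithelial splicing factor, changed by -0.47 and -0.18. *CDH1*, E-cadherin, was higher at d15, at 6468, 6395 and 6149 against 5764, 5576 and 5544 (log2 difference 0.17, SE 0.03, limma, adjusted p = 2.56e-06), and so was *MUC1* (0.71). *ESRP2* and *OVOL2* did not pass, and their groups overlapped.

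**Figure D4:**
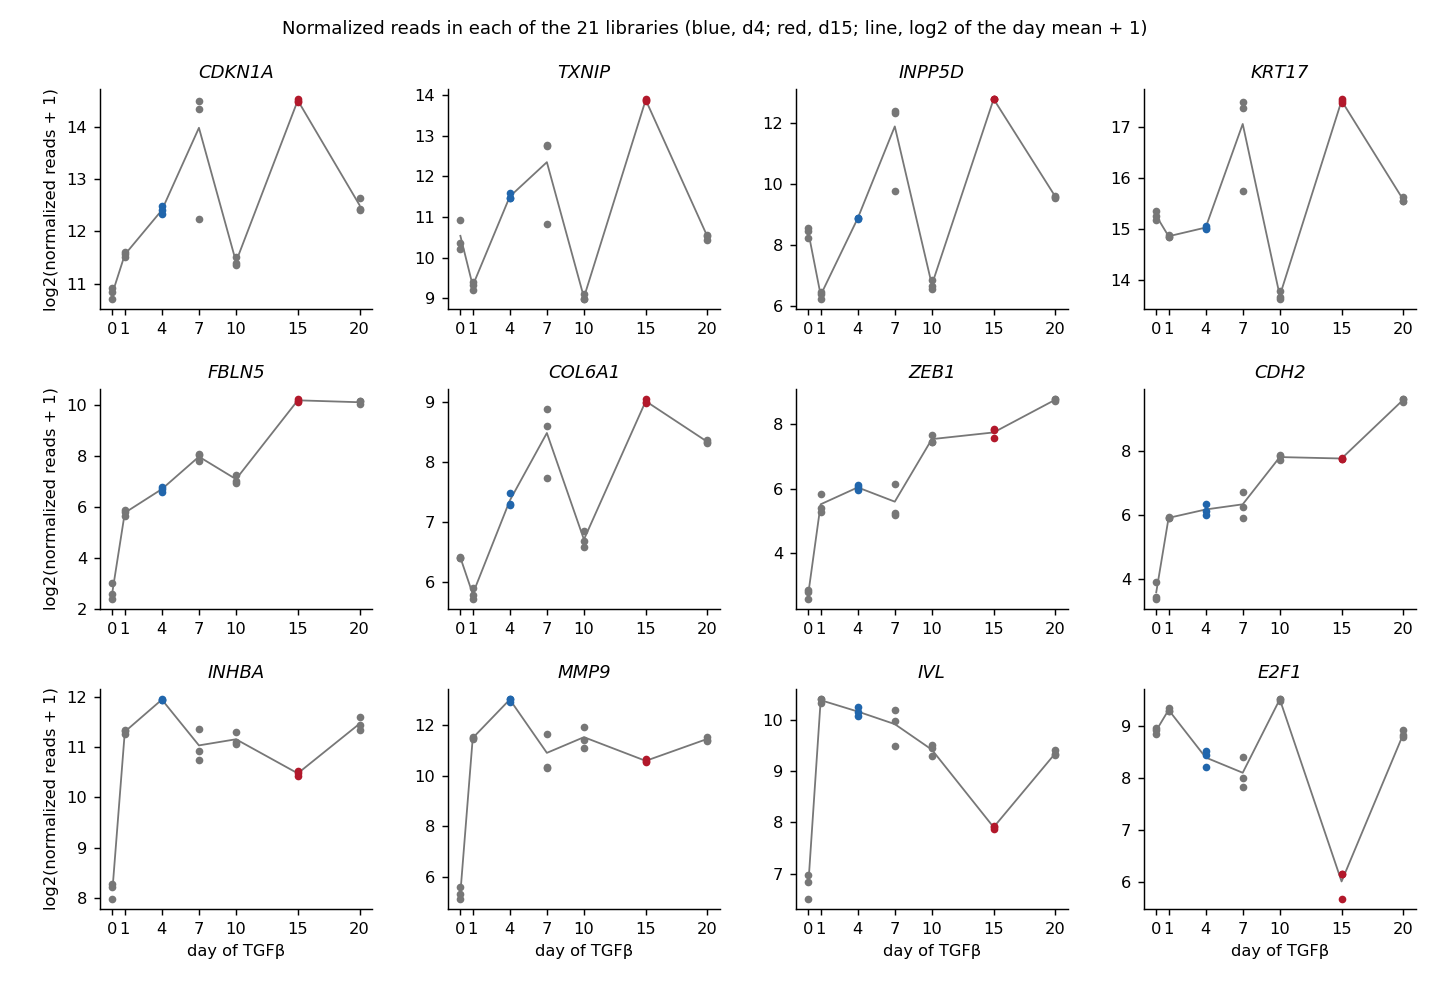
Log2(normalized reads + 1) of 12 genes in each of the 21 libraries by day of TGFβ treatment, each panel with its own y axis. Points are libraries (blue, d4; red, d15; grey, other days) and lines join the log2 day means; *CDKN1A*, *TXNIP*, *INPP5D* and *KRT17* are high at d15 and in 2 of the d7 libraries, while *FBLN5* has day means of 54 at d1, 103 at d4 and 1165 at d15.

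Target and feedback genes of the TGFβ pathway were lower at d15 in 14 of 26 cases, with 8 higher and a median of -0.43. *INHBA*, the subunit of the related ligand activin, fell from 3906, 4004 and 3927 to 1468, 1430.0 and 1383. *PMEPA1* and *SMAD7*, inhibitors of SMAD signalling, changed by -0.50 and -0.51 on the log2 scale. Both were named after their values were seen. *GREM1*, a secreted antagonist of bone morphogenetic proteins, rose from 37.9, 35.05 and 28.4 to 105, 139 and 116, and the ligand *TGFB2* rose from 61.3 to 120.1. *TGFB1* and *TGFBR1* did not pass the test (-0.05 and -0.07), and *TGFBR2* fell from 2354 to 1735.

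Keratin genes of basal epithelium went in both directions, and the laminin genes *LAMA3* and *LAMB3* fell. Of 15 basal markers, 8 were higher and 6 lower. *KRT5* and *KRT14*, the keratin pair of basal cells, rose from 129451 to 175809 and from 97206 to 119037, whereas *KRT15*, another basal keratin gene, which is on none of the lists and was named after its values were seen, fell from 1053 to 491. *TRIM29* rose from 3431, 3413 and 3115 to 7105, 6526 and 6875. *ITGA6*, a subunit of an epithelial laminin receptor, fell from 21563 to 13794. *TP63*, the basal transcription factor, did not pass (-0.04). Genes of the contractile apparatus of smooth muscle, also used by myoepithelium, were higher in 12 of 13 cases. *TAGLN*, an actin-binding protein gene, rose from 814, 765 and 748 to 2806, 2826 and 2829. *MYL9*, a myosin light chain gene, rose from 131, 156 and 142 to 391, 355 and 348. *ACTA2* rose from 634 to 1007, while *ACTG2*, *CNN1* and *DES* were at the floor.

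Of 32 genes of the cornified envelope and late keratinocytes, 20 passed the filter, and 14 of these were lower and 3 higher, 11 at least 2-fold lower, with a median of -1.50. The list does not hold all such genes. *FLG*, *LCE1C* and *PPL*, which are not on it and were named after their values were seen, were higher (1.35, 2.30 and 1.12). *IVL*, involucrin, fell from 1078, 1132 and 1215 to 234, 241 and 240.3 (log2 difference -2.25, SE 0.06, limma, adjusted p = 6.16e-34). *SPRR1B*, a cross-linked envelope precursor gene, fell from 196, 224 and 200.7 to 21.4, 28.9 and 61.1. *KLK10*, a skin protease gene, fell from 56.8, 84.7 and 67.6 to 15.3, 4.52 and 13.5. *KRT6B* changed by -1.78 while *KRT6A* changed by 0.40, and reads of these 2 near-identical paralogs can be split between them. Tight junction and desmosome genes went both ways, with 7 of 18 higher and 6 lower. *CLDN4*, a claudin of tight junctions, fell from 327, 364 and 317 to 90.8, 102 and 119.

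Feedback inhibitors of the MAP kinase cascade did not all move the same way. *DUSP6*, a phosphatase of ERK, fell from 2004, 2325 and 2288 to 711, 696 and 651. *SPRY4*, a receptor kinase inhibitor gene, fell from 1297, 1521 and 1463 to 462, 505 and 495. *DUSP4* fell from 834, 893 and 867 to 293, 310.2 and 312. *DUSP1*, a phosphatase of the stress-activated kinases, rose from 793, 829.6 and 778 to 2808, 2542 and 2582. The whole list of 21 immediate early and feedback genes held 10 higher and 9 lower. Of 11 EGF-like ligand and receptor genes, 6 were lower and 4 higher. Among the ligands, *AREG* rose from 110.4, 107 and 144 to 365, 393 and 369, and *TGFA* fell from 1396, 1431 and 1481 to 771, 756 and 709.

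In the Notch pathway, 9 of 15 genes were higher and 5 lower. The receptor gene *NOTCH1* rose from 1791, 1669 and 1731 to 7807, 7559.6 and 7673 (log2 difference 2.15, SE 0.03, limma, adjusted p = 1.11e-43). Its targets went in both directions. *HEYL* rose from 9.86 to 39.7 and *HES4* from 29.03 to 59.5, while *HEY1* fell from 81.1 to 38.4, *HES1* from 754 to 608 and *NRARP* from 90.6 to 69.4. Of 19 WNT ligand and antagonist genes, 6 were higher and 8 lower; *AXIN2*, a feedback gene of the pathway, rose from 43.1, 42.8 and 57.8 to 138, 140.2 and 122, and the ligand *WNT7A* fell from 369, 399 and 349.6 to 149, 159 and 152. The PDGF, FGF and IGF list had 9 of 18 higher and 5 lower, with the receptor *PDGFRB* rising from 27.3, 29.2 and 38.2 to 135, 129 and 119 and *FGFBP1*, which releases FGF from the matrix, falling from 1344 to 458. Of 25 YAP and TAZ targets, 14 were higher and 7 lower, with *ANKRD1* at 1.65 and *NT5E*, the surface enzyme CD73, at -1.25. Of 10 endothelial markers, 3 passed the filter, 1 of them higher and 2 lower. *KDR* rose from 71.5, 69.1 and 56.8 to 273, 263 and 253, while *TEK* changed by -2.31 and *ROBO4* by -0.32. *CDH5*, *CLDN5* and *EMCN* were at the floor.

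Immune-related lists differed in direction. Of 15 complement and acute phase genes, 9 were higher and 4 lower. *C1R* and *C1S*, proteases that start the classical cascade, rose from 778, 769 and 749 to 2896, 2786 and 2961 and from 207, 191 and 209.5 to 566, 594 and 593. MHC class I genes were higher in 10 of 15 cases and lower in 3, with a median of 0.20, and *TAP1*, the peptide transporter gene, rose from 1493, 1487 and 1352 to 2335, 2372 and 2376. Of 34 interferon-stimulated genes, 16 were lower and 5 higher. This list is not complete. Of genes outside it, *TRIM22*, *GBP2* and *GBP1* were higher (2.15, 1.74 and 1.09) and *GBP6* was lower (-1.39). These were named after their values were seen. *OAS3*, an antiviral sensor gene, fell from 2672, 3115 and 2682 to 1274, 1208 and 1186. Of 16 cytokine and chemokine genes tested, 8 were lower and 4 higher; *IL1B* fell from 487, 472 and 441 to 125, 142 and 151. *CSF3* fell from 232, 384 and 298 to 93.8, 77.8 and 76.7, and *IL1RN* from 89.5 to 22.8. Of 19 NF-kB targets, 5 were higher and 7 lower, close to the 29.6% and 35.9% over all genes, and *SOD2*, the mitochondrial superoxide dismutase gene, rose from 2383 to 4621.

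The study's signature of a basal epithelial subpopulation of triple-negative breast cancer has 101 members, of which 99 were in the file under the symbols given and 90 passed the filter. Of these, 50 were higher and 33 lower at d15, 12 and 6 of them at least 2-fold, with a median of 0.26. The 6 that fell at least 2-fold were *KRT6B*, *TINAGL1*, *MT2A*, *LAMB3*, *LAMA3* and *S100A2*, the last 5 between -1.63 and -1.10. *BGN*, *KRT17* and *TAGLN*, described above, had the largest increases among its members with a mean of at least 50 in the higher group. A further 6 members were at the floor in every library (*ACTG2*, *CCL2*, *CRISPLD1*, *FMO2*, *MIA* and *S100B*).

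*TERT*, the telomerase gene that the line carries as a transgene, was at 6411, 7269 and 7682 at d4 and 1173, 1213 and 1219 at d15 (log2 difference -2.56, SE 0.04, limma, adjusted p = 4.11e-43). It was named after its values were seen, and reads of the transgene and of the chromosomal gene cannot be told apart.

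The comparison of d20 with d0 shares no library with that of d15 and d4, and it was made on the same 13391 genes. It found 997 genes (7.45%) at least 2-fold higher and 616 (4.6%) lower at d20 (limma, adjusted p under 0.05), whereas with equal library totals it found 798 higher and 879 lower. Of the 488 genes that were higher at d15 than at d4, 125 (25.6%) were also higher at d20 than at d0, which is 12.5% of the 997, and 81 (16.6%) were lower, which is 13.1% of the 616. Of the 472 that were lower at d15, 78 (16.5%) were also lower at d20, 12.7% of the 616, and 124 (26.3%) were higher, 12.4% of the 997. The remaining genes were not called at d20. *FBLN5* is an example of a gene that was higher in both, with 5.44 at d0 and 1106 at d20 (log2 difference 7.45). *EDN2* was higher at d15 and lower at d20 (-3.15), and *ANGPTL4* was lower at d15 and higher at d20 (4.55). *KLK7* was lower in both, with 516 at d0 and 19.8 at d20. *KRT17* was not called at d20, with 39309 and 48718.

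**Figure D5:**
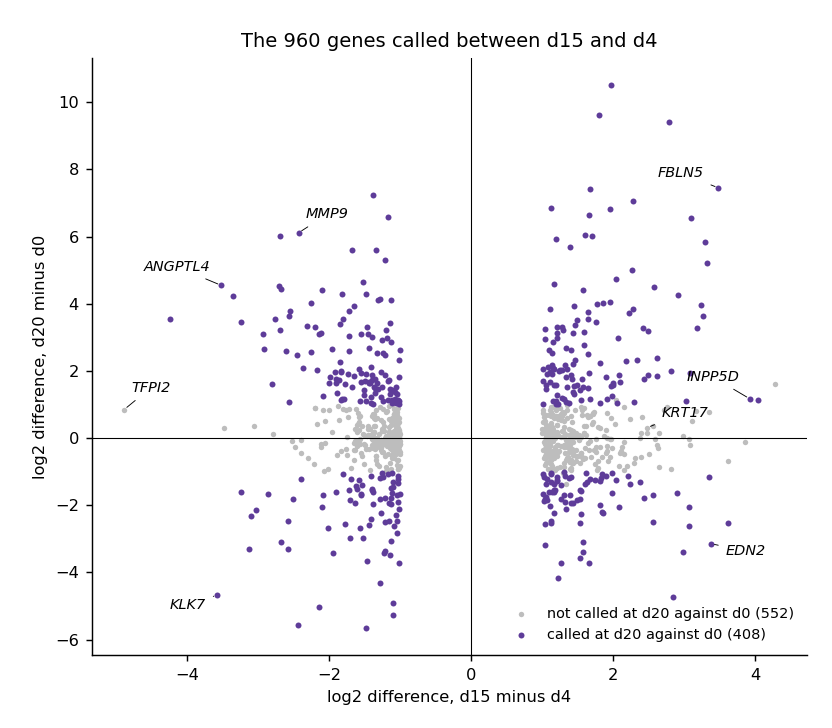
Log2 difference between d20 and d0 (y axis) against that between d15 and d4 (x axis) for the 960 genes called between d15 and d4, where the empty band around 0 on the x axis follows from the 2-fold threshold. Purple points (408) were also called between d20 and d0 and lie in all 4 quadrants; grey points (552) were not.

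Several of the genes that led the change between d4 and d15 had values at d7 that differed between the libraries of that day. *INPP5D* was at 5402, 5169 and 876 at d7, with 2 libraries near the d15 level and the third nearer to that of d4, and at 91.6, 115 and 99.7 at d10. *EPPK1* was at 560.4, 459.8 and 92.1 and *KRT17* at 184224, 169632 and 55169. For *TERT* the d7 values were 4873, 4949 and 10243 and the d10 mean was 19069, above the d4 and d15 means of 7121 and 1202. The matrix gene *FBLN5* was at 262, 268 and 223, where the d7 libraries stood together. The fit of d15 against d4 used no d7 or d10 library.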

How the data were processed

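RNA-seq was made from 21 HMLE libraries, 3 at each of 7 timepoints, and grouped by the day given in the labels. The authors deposited 1 table with a signal for 23201 gene symbols, which is the reads of each gene divided by 1 size factor per library and rounded. The submitters' processing notes name hg19, STAR 2.7 and Salmon 1.4 without saying what each was used for. The annotation and the strand of the counting are not given in the sources used here. All values of a library (100%) gave whole reads when multiplied by its factor (tolerance 0.1 read), with totals of 19845160 to 22667754 reads and size factors of 0.951 to 1.11 in the 6 libraries compared, and the floor of 3 reads covers counting error only.

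The deposited values of the 6 d4 and d15 libraries were put on a log2(value + 1) scale and compared by limma 3.58.1, run in R 4.3.3 with lmFit and a trended eBayes, for genes with a mean of at least 10, with Benjamini-Hochberg adjustment over all 13391 genes. A fold change on this scale understates the change of genes with low values. A called gene had an adjusted p under 0.05 and a change of 2-fold or more. The genes, gene lists and tests were chosen with earlier results of these data known. Named genes are the 12 largest increases and decreases among called genes with a mean of at least 50 in the higher group and no overlap, the hallmark genes, up to 4 genes per list by size of the change, the marker genes, and the 5 called genes with the highest mean in each direction; other list members, such as *TGFB1*, *HES1*, *KRT6A*, *GAPDH* and *MMP1*, and genes that complete a count stand outside this rule and were named after their values were seen. A few genes and 1 gene list, whose median was above those of the lists shown, are not reported here. Two-sided exact permutation tests compared the mean of the S phase and mitosis lists.

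Alternatives were a pseudocount of 10, no filter, a mean of at least 50, equal library totals, quantile normalization, fits of all 21 or of 18 libraries, edgeR 4.0.16 (quasi-likelihood) and DESeq2 1.42.0 on whole reads, a call without a minimum fold, and each library left out in turn. Simulated data for this comparison held 13391 genes, of which 100 changed 2-fold and 100 changed 4-fold. At an adjusted p under 0.05 with no minimum fold, limma found 96 and 100 of these and 5 unchanged genes. Far fewer genes changed in the simulation than the 65.5% that passed this threshold in the data. Promoters were 250 bases before the start of each gene in a RefSeq table of GRCh38.p14, matched by symbol for 9288 of the genes tested. Python 3.11.15 and matplotlib 3.10.9 drew the figures.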

Additional observations from a re-analysis of the deposited data

How the results depend on the processing

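No paired analysis was possible because replicate numbers are missing from the table. Across 16 alternative settings the S phase and mitosis differences kept their direction, and no named gene past the threshold changed sign. The median of all genes turned from -0.02 to 0.02 with equal totals and was 0.01 with quantile normalization, 0.0057 with edgeR and 0.0033 with DESeq2. With the filter at a mean of at least 50, 253 genes were called higher and 334 lower among 11503 genes tested, 7 cornified envelope and late keratinocyte genes and 5 cytokine and chemokine genes were lower, which follows from the smaller number of genes tested. Without a filter 847 genes were higher and 703 lower among 18522. With a pseudocount of 10, 318 genes were higher and 372 lower, the S phase difference was -1.02, 81 genes were higher in both comparisons and 40 were higher at d15 and lower at d20. Without a minimum fold 3963 genes were higher and 4814 lower, which turned to 4504 and 4304 with equal totals. With quantile normalization 14 oxidative phosphorylation genes were lower and the S phase and mitosis differences were -1.003 and -0.83, and with equal totals the S phase difference was -1.01; the cause was not tested. On the recovered reads edgeR called 525 genes higher and 442 lower, and DESeq2 513 and 438. With each library left out in turn, 488 to 511 genes were higher and 462 to 488 lower. Of the named genes, *ROBO4*, *ITGB4* and *COL17A1* no longer passed an adjusted p under 0.05 under at least 1 setting. *FN1* and *OVOL2* passed it under at least 1 setting. The depth of these libraries leaves genes with fewer than 10 normalized reads on average untested.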
